A study of Drosophila melanogaster with 10 samples.

Results

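Protamines and the other sperm nuclear proteins of *Drosophila melanogaster* were followed in testes that lack tBRD-1, a bromodomain protein of primary spermatocytes. The 8 genes were *Mst35Ba*, *Mst35Bb*, *Mst77F*, *CG15510*, *Tpl94D*, *tHMG1*, *tHMG2* and *CG42355*, given as a list, and their probe sets were those that the annotation of the array pairs with exactly 1 of them. All 8 genes were found, with 9 of the 18769 probe sets tested, since *CG42355* has 2 probe sets. The wild-type flies were *w1118*. The mutants were homozygous for *tbrd-1* (labelled tbrd-11/tbrd-11), an allele made by integration of a P-element with a *white* marker, so that the mutants also carried this *white* gene. Testes of males aged 0 to 2 days were hybridized to 5 arrays per genotype, each with its own RNA pooled from 25 animals. A value is thus an average over whole testes, and in such bulk RNA fewer cells of a type and less RNA per cell cannot be told apart.

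In *Drosophila*, as in mammals, the haploid spermatid exchanges most of its histones for small basic proteins while the nucleus is reshaped and compacted. Transition proteins and HMG-box proteins bind the DNA for a short time, and protamine-like proteins then remain in the mature sperm head. The mRNAs are made earlier, in primary spermatocytes, and are stored under translational repression until the late spermatid stages. The comparison asks whether the levels of these mRNAs in the testis differ when tBRD-1 is missing.

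As a check of the labels, *tbrd-1* had a signal intensity of 787 ± 140 in wild-type and of 13.8 ± 2.28 in mutant testes (SD, n = 5 each). Its log2-fold change was -5.83 (limma adjusted p = 4.4e-10), and the genotypes were far apart on all 10 arrays. Intensities are in linear units, and their array medians lay between 68 and 78. On the log2 scale the medians ran from 6.13 to 6.29 in wild-type and from 6.09 to 6.15 in the mutant. The arrays differed in genes of other organs. For 13 gut enzyme genes the mean log2 intensity was 4.89 to 5.93 on 6 arrays, but reached 9.33, 9.40 and 8.15 in wild-type replicates 1, 3 and 4, and 8.06 in the third mutant replicate. These 4 are called gut-high arrays here. For *Ebp* and *EbpII*, which encode ejaculatory bulb proteins, the mean was 5.25 to 7.35 on 5 arrays and 12.05 to 13.41 on wild-type replicates 2 and 3 as well as mutant replicates 2, 4 and 5, called *Ebp*-high arrays here.

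The mRNAs for sperm chromatin proteins were present at high signal in both genotypes, and their differences were small. No gene was called at a log2-fold change of at least 1 in either direction with an adjusted p of at most 0.05 (limma, Benjamini-Hochberg adjustment over all probe sets): 0 of 9 probe sets, and also 0 with a fold minimum of 1.5. Over all probe sets, 1.18% were called higher and 2.36% lower at a log2-fold change of at least 1 in size. Without a fold minimum, 6 of 9 probe sets were higher in the mutant and 0 lower, and the same number, 6, had an unadjusted p under 0.05. Over all probe sets these shares were 21.6% higher and 14.7% lower. The 6 were those of *Mst77F*, *CG15510*, *Tpl94D*, *tHMG1* and *tHMG2* and the dim probe set of *CG42355*. The 5 genes with a bright probe set among them were 14.7% to 20.5% higher in the mutant. The median log2-fold change was 0.21 over the 9 probe sets and 0.07 over all probe sets, and all 9 lay above 0, as did 61.7% of all probe sets. Among the 762 probe sets within the signal range of the bright ones, the median was 0.01, 23.6% were higher and 19.9% lower. The highest upper limit of the 95% intervals was 0.42 on the log2 scale, a fold of 1.34. The count of 6 rested on several single arrays. It was 2 without wild-type replicate 1, mutant replicate 1 or mutant replicate 2, and 3 without wild-type replicate 3 or mutant replicate 5. With the 4 gut-high arrays left out it was 1, that of *Mst77F* (log2-fold change 0.25, limma adjusted p = 0.05), and with the 5 *Ebp*-high arrays left out it was 0, where fewer arrays remained. Both fits kept the log2-fold changes of *CG15510*, *Tpl94D*, *tHMG1* and *tHMG2* above 0, between 0.11 and 0.32.

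**Figure D1:**
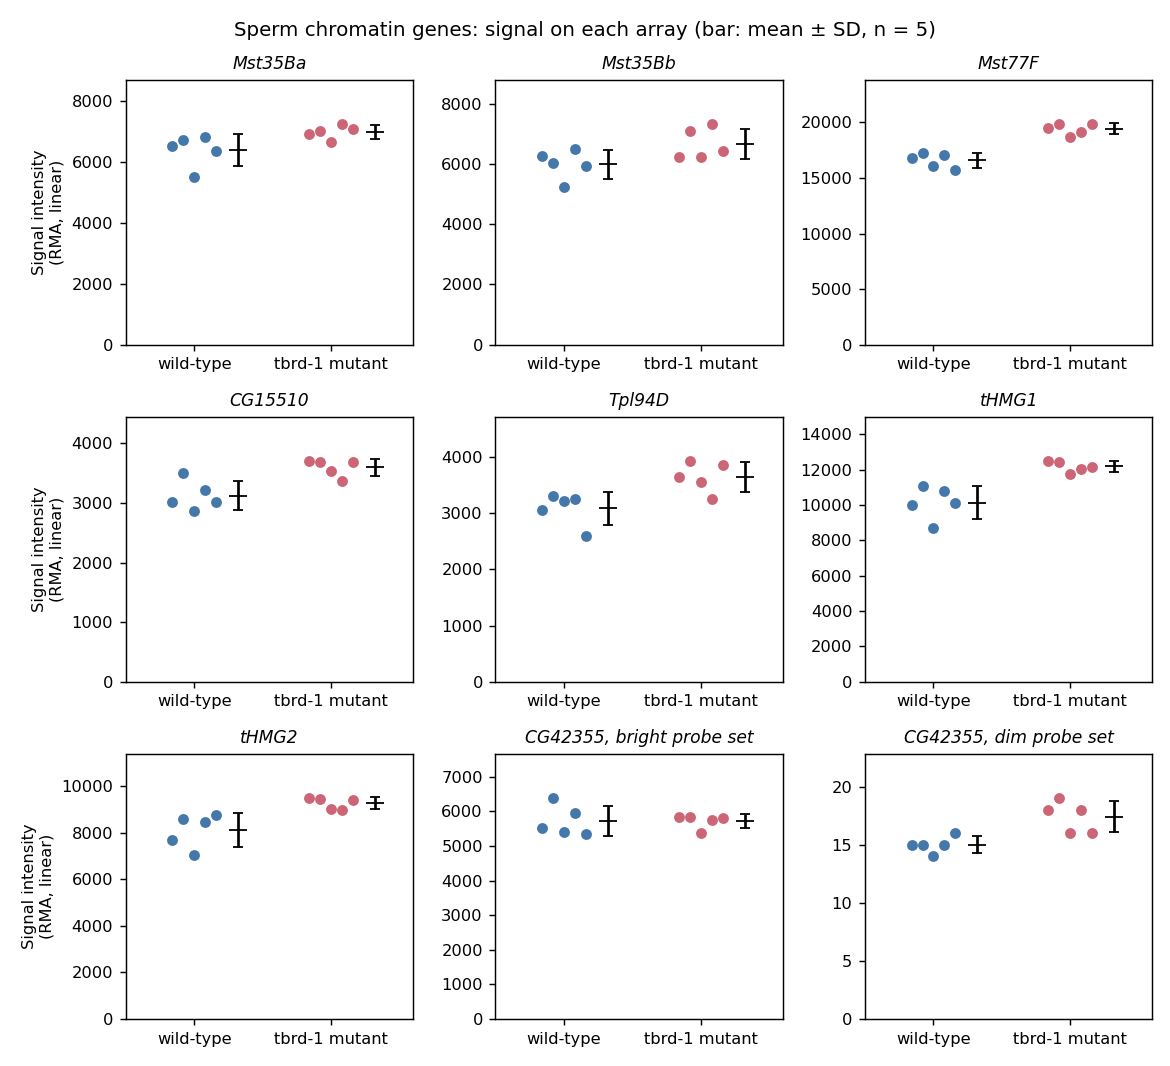
Signal intensity (linear units, axis from 0) of each probe set on each of 5 wild-type and 5 *tbrd-1* mutant arrays. Points are arrays and the bars give the mean ± SD. The mutant points of *Mst77F*, *tHMG1* and *tHMG2* lie above every wild-type point, and those of the bright *CG42355* probe set lie within the wild-type range.

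*Mst35Ba* and *Mst35Bb*, also called *ProtA* and *ProtB*, encode the closely related pair of protamine-like proteins that stay in mature sperm. The intensities of *Mst35Ba* on wild-type replicates 1 to 5 were 6514, 6719, 5483, 6819 and 6358, and on mutant replicates 1 to 5 they were 6891, 7010, 6652, 7237 and 7056. Of the mutant arrays, 4 lay above the highest wild-type array, and wild-type replicate 3 was the lowest of all. The means were 6379 ± 532 and 6969 ± 217 (SD, n = 5 each), a log2-fold change of 0.13 ± 0.07 (SE) with a 95% interval from -0.01 to 0.28 (limma adjusted p = 0.14). The intensities of *Mst35Bb* were 6254, 6022, 5243, 6503 and 5928 in wild-type and 6247, 7093, 6233, 7338 and 6437 in the mutant. The genotypes overlapped, with 2 mutant arrays above the highest wild-type array. The means were 5990 ± 473 and 6670 ± 512 (SD, n = 5 each), a log2-fold change of 0.16 ± 0.07 (SE) with a 95% interval from -0.01 to 0.32 (limma adjusted p = 0.12). Without wild-type replicate 3 the value of *Mst35Ba* was 0.08, and without the *Ebp*-high arrays *Mst35Ba* was at 0.05 and *Mst35Bb* at 0.00. Neither protamine gene passed the test, and the intervals reach a difference of the size found for the genes below.

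The near-identity of the 2 protamine genes limits how far their probe sets keep them apart. A probe set that the annotation pairs with both genes, and which was therefore not counted, read 15473, 15801, 14980, 15783 and 14469 in wild-type and 15504, 16307, 15154, 15870 and 15597 in the mutant. Its log2-fold change was 0.04 with a 95% interval from -0.07 to 0.14 (limma adjusted p = 0.58). The log2-fold changes of *Mst35Ba* and *Mst35Bb* differed by -0.02, with a limma 95% interval from -0.12 to 0.07. An exact permutation test of the within-array difference gave p = 0.516 (two-sided, n = 5 per genotype).

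*Mst77F*, which encodes a linker histone-like protein of the sperm nucleus that is needed for its shaping and for male fertility, gave the smallest p of the group. Its intensities were 16798, 17221, 16102, 17079 and 15710 in wild-type and 19478, 19870, 18721, 19122 and 19865 in the mutant. The lowest mutant array lay above the highest wild-type array. The means were 16582 ± 651 and 19411 ± 495 (SD, n = 5 each), which is 17.1% higher in mutant testes and a log2-fold change of 0.23 ± 0.05 (SE) with a 95% interval from 0.12 to 0.34 (limma adjusted p = 0.0041). It passed with any 1 of the 10 arrays left out, and did not pass with the *Ebp*-high arrays left out (0.21, limma adjusted p = 0.15). *Mst77F* lies within *Pka-R1* on chromosome arm 3L and has copies on the Y chromosome, and whether the probes also read those copies was not tested. The brightest probe set of an array read between 23823 and 25679, and the deposited values carry no mark of saturation.

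*CG15510*, also called *Prtl99C*, encodes a protamine-like protein of mature sperm that contributes to the compaction of the nucleus. The intensities were 3023, 3497, 2860, 3217 and 3022 in wild-type and 3705, 3691, 3545, 3375 and 3686 in the mutant. Mutant replicate 4 fell within the wild-type range and the other 4 lay above it. The means were 3124 ± 244 and 3600.4 ± 142 (SD, n = 5 each), which is 15.5% higher in mutant testes and a log2-fold change of 0.21 ± 0.06 (SE) with a 95% interval from 0.07 to 0.35 (limma adjusted p = 0.025). It remained past the threshold in 5 of 10 fits that left out 1 array, with adjusted p between 0.0085 and 0.059 from limma. Those that ended the call left out wild-type replicate 1 or 3 or mutant replicate 1, 2 or 5.

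*Tpl94D* encodes a transition protein-like HMG-box protein that is found in the nucleus only while histones are being replaced. The intensities were 3056, 3306, 3218, 3256 and 2595 in wild-type and 3651, 3929, 3561, 3253 and 3853 in the mutant. Wild-type replicate 5 was the lowest, and mutant replicate 4 was the single mutant array within the wild-type range. The means were 3086 ± 290.1 and 3649 ± 267 (SD, n = 5 each), which is 18.4% higher in mutant testes and a log2-fold change of 0.24 ± 0.08 (SE) with a 95% interval from 0.07 to 0.42 (limma adjusted p = 0.034). It remained past the threshold in 5 of 10 fits that left out 1 array, with adjusted p between 0.02 and 0.078 from limma. The call ended without wild-type replicate 1 or mutant replicate 1, 2, 3 or 5.

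*tHMG1* and *tHMG2* lie next to each other on chromosome arm 3R and encode HMG-box proteins that are present for a short time in spermatid nuclei. The intensities of *tHMG1* were 9992, 11068, 8671, 10802 and 10129 in wild-type and 12481, 12448, 11756, 12028 and 12154 in the mutant. The genotypes did not overlap, and wild-type replicate 3 was again the lowest array. The means were 10132 ± 933 and 12173 ± 302 (SD, n = 5 each), which is 20.5% higher in mutant testes and a log2-fold change of 0.27 ± 0.07 (SE) with a 95% interval from 0.12 to 0.42 (limma adjusted p = 0.01). This was the largest log2-fold change of the 9 probe sets, and it passed with any 1 of the 10 arrays left out. It did not pass after quantile normalization (0.17, limma adjusted p = 0.12), without the gut-high arrays (0.21, limma adjusted p = 0.079) or without the *Ebp*-high arrays (0.23, limma adjusted p = 0.12).

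The intensities of *tHMG2* were 7691, 8606, 7032, 8473 and 8743 in wild-type and 9484, 9452, 9002, 8995 and 9412 in the mutant. The genotypes did not overlap here either, although the gap between the highest wild-type and the lowest mutant array was small beside the spread of the wild-type arrays. The means were 8109 ± 727 and 9269 ± 248 (SD, n = 5 each), which is 14.7% higher in mutant testes and a log2-fold change of 0.20 ± 0.07 (SE) with a 95% interval from 0.05 to 0.35 (limma adjusted p = 0.04). It remained past the threshold in 3 of 10 fits that left out 1 array, those without wild-type replicate 2, 4 or 5. The call also ended without the gut-high arrays (0.11, limma adjusted p = 0.31), without the *Ebp*-high arrays (0.16, limma adjusted p = 0.3) and after quantile normalization (0.15, limma adjusted p = 0.16). With *Mst77F* and *tHMG1*, *tHMG2* made 3 of 9 probe sets with every mutant array above every wild-type array. Over all probe sets this share was 13.6%, and 10.3% had every mutant array below every wild-type array. Among the 762 probe sets of like signal, 21.4% had every mutant array above.

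*CG42355*, another gene of the MST-HMG-box family of sperm nuclear proteins, has a bright and a dim probe set, and they differed. The bright probe set read 5520, 6383, 5416, 5942 and 5355 in wild-type and 5842, 5825, 5386, 5751 and 5807 in the mutant. The mutant arrays lay within the wild-type range, and mutant replicate 3 stood apart from the other 4. The means were 5723 ± 434 and 5722 ± 191 (SD, n = 5 each), a log2-fold change of 0.00 ± 0.06 (SE) with a 95% interval from -0.13 to 0.14 (limma adjusted p = 0.98). The dim probe set read 15, 15, 14, 15 and 16 in wild-type and 18, 19, 16, 18 and 16 in the mutant. Its log2-fold change of 0.21 passed (limma adjusted p = 0.026), but these values are whole numbers in which 1 unit is 0.09 on the log2 scale, and no detection call tells them from background. For *CG42355* the bright probe set is the one used in the counts by gene.

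**Figure D2:**
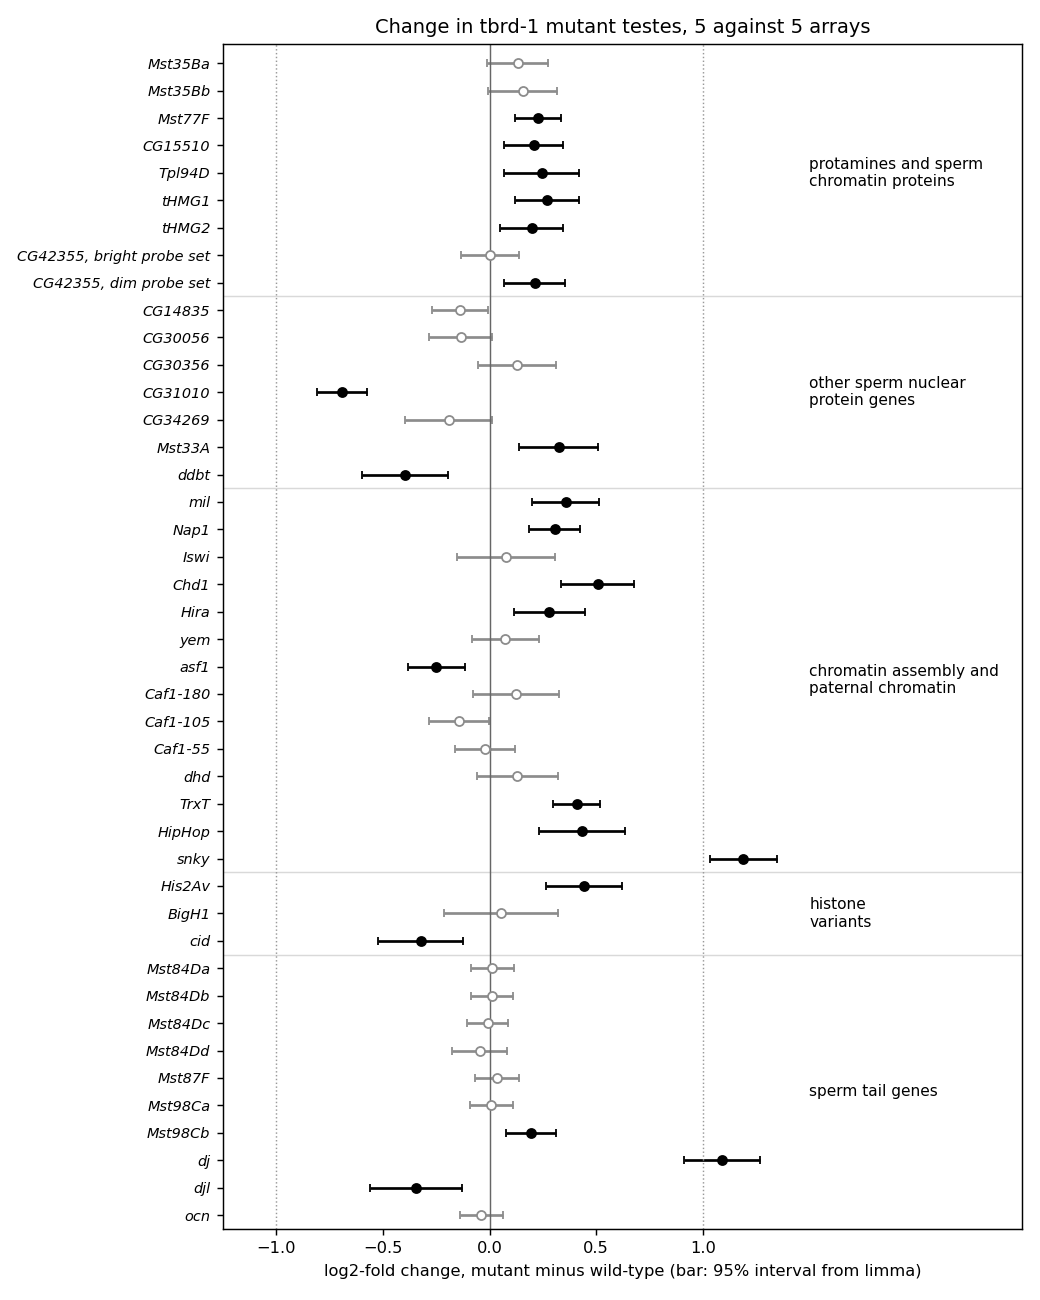
Log2-fold change (mutant minus wild-type, 5 arrays each) with its 95% interval from limma for the sperm chromatin genes and 4 lists of related genes. Filled points have an adjusted p of at most 0.05, and the dotted lines mark a log2-fold change of 1 in either direction. The sperm chromatin genes lie between 0.00 and 0.27, and *snky* and *dj* alone pass the line at 1.

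Because the changes were small, each gene was also set within the same array against *Mst87F*, a sperm tail gene whose mRNA belongs to the same class of stored male-specific transcripts. Such a difference cancels what is common to both genes on an array, and it shows unequal change, not which of the pair moved. The intensities of *Mst87F* were 16812, 17270, 15835, 17033 and 16411 in wild-type and 17009, 17318, 17284, 17256 and 16619 in the mutant. The log2-fold change was 0.04 (95% interval from -0.07 to 0.14, limma adjusted p = 0.56). The genotypes overlapped. With *Mst87F* nearly flat, each difference stays close to the gene's own log2-fold change, as 0.19 beside 0.23 for *Mst77F*. The 8 pairs with *Mst87F* use the same arrays as the limma fit and share the same reference gene. They are therefore not evidence separate from that fit. In total 10 pairs were compared with two-sided exact permutation tests, adjusted over the 10, and the smallest p that 5 against 5 arrays allow is 0.00794. The permutation test gives no interval, so the 95% intervals of the differences are those of limma, a different test.

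Of the 8 pairs with *Mst87F*, 4 passed, all of genes already past the adjusted p in the limma fit. The share of all probe sets that would exceed *Mst87F* in this test was not computed, and other sperm tail genes were not tried as the reference. In the limma fit, 21.6% of all probe sets were higher in the mutant without a fold minimum. The log2-fold change of *Mst77F* exceeded that of *Mst87F* by 0.19, with a limma 95% interval from 0.10 to 0.28 (exact p = 0.00794, adjusted p = 0.0397). All 5 mutant arrays lay above all wild-type arrays. For *tHMG1* the difference was 0.23 with a limma interval from 0.14 to 0.33 (exact p = 0.00794, adjusted p = 0.0397), also without overlap. These 2 pairs passed with any 1 of the 10 arrays left out. *CG15510* exceeded *Mst87F* by 0.17 (exact p = 0.0159, adjusted p = 0.0397) and *tHMG2* by 0.16 (exact p = 0.0238, adjusted p = 0.0476), but each passed in 3 of the 10 fits that left out 1 array. Both passed without mutant replicate 3 or 4, *CG15510* also without wild-type replicate 2 and *tHMG2* also without wild-type replicate 5. The other 4 pairs did not pass. The difference was 0.21 for *Tpl94D* (limma 95% interval from 0.09 to 0.32, exact adjusted p = 0.068) and 0.12 for *Mst35Bb* (limma, from 0.02 to 0.22, exact adjusted p = 0.119). It was 0.09 for *Mst35Ba* (limma, from 0.00 to 0.19, exact adjusted p = 0.0661) and -0.03 for *CG42355* (limma, from -0.13 to 0.06, exact adjusted p = 0.511). With limma on the same differences *Tpl94D* and *Mst35Bb* also passed (adjusted p = 0.0021 and 0.038).

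The neighbours *tHMG1* and *tHMG2*, whose proteins bind each other, differed from one another by 0.07 on the log2 scale, with the larger increase in *tHMG1* (exact p = 0.0159, adjusted p = 0.0397). Of the mutant arrays 4 lay above all wild-type arrays in this difference. The call did not hold with limma on the same difference (95% interval from -0.02 to 0.16, adjusted p = 0.14), and it held in 2 of 10 fits that left out 1 array, those without wild-type replicate 1 or 2.

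**Figure D3:**
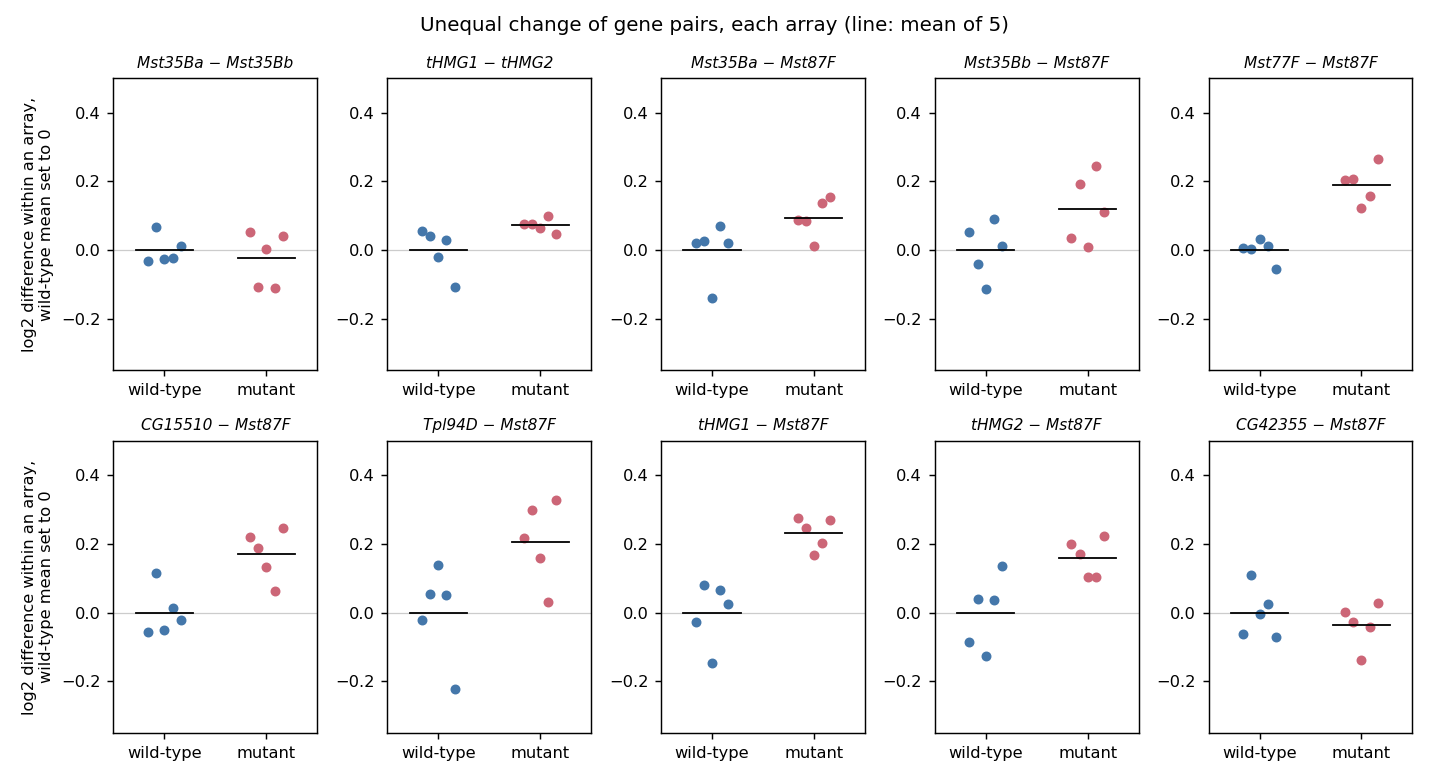
Within-array difference of log2 intensity for 10 gene pairs on each array, with the wild-type mean of each pair set to 0 and a line at each genotype mean of 5 arrays. The mutant points of *Mst77F* and *tHMG1* against *Mst87F* lie above all wild-type points, and those of *Mst35Ba* against *Mst35Bb* and *CG42355* against *Mst87F* are mixed with them.

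The genes varied together from array to array within a genotype. After each genotype mean was removed, the 28 pairs formed by the 8 genes had Pearson r between -0.12 and 0.91 over 10 arrays, with a median of 0.60, and 25 of them were above 0. The highest values were those of *Mst35Ba* with *tHMG1* (r = 0.91) and of *tHMG1* with *tHMG2* (r = 0.88). The pairs *Mst77F* with *CG42355*, *CG15510* with *tHMG1* and *CG15510* with *CG42355* each had r = 0.84, and the 2 protamine genes had r = 0.83. *Tpl94D* was in the 3 pairs below 0, with r of -0.12 to *tHMG2*, -0.11 to *Mst35Bb* and -0.02 to *Mst35Ba*, while its r was 0.76 to *Mst77F*, 0.54 to *CG42355*, 0.53 to *CG15510* and 0.14 to *tHMG1*. The mean of the 8 genes deviated from its genotype mean by -0.12 to 0.10 in wild-type and by -0.06 to 0.05 in the mutant. The wild-type arrays thus weigh more in this mean profile. These are descriptions over 10 arrays that share their normalization, and no test was made of them. Pairs of other genes of like signal were not compared.

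The mean log2 intensity of the 8 genes ranged from 12.52 to 12.74 over wild-type arrays and from 12.77 to 12.87 over mutant arrays, and replicate 3 was the lowest of each genotype. The means of other germ cell lists also lay apart. That of 13 spermatocyte genes ranged from 8.97 to 9.27 in wild-type against 9.29 to 9.52 in the mutant, with 5 of 13 genes higher and 1 lower without a fold minimum. That of 11 spermatid genes ranged from 10.06 to 10.27 in wild-type against 9.94 to 10.05 in the mutant, with 2 higher and 4 lower. Neither list mean overlapped between the genotypes, the first being higher in the mutant and the second lower, though narrowly (10.0562 against 10.0549). Of single probe sets, 13.6% had every mutant array above every wild-type array and 10.3% had every one below. The like share for means of several genes was not computed. At the adjusted p without a fold minimum, 21.6% of all probe sets were higher and 14.7% lower. Genes of both lists went in both directions. The spermatocyte list had a median log2-fold change of 0.15, with 9 of 13 genes above 0 and values from -1.11 (*can*) to 1.65 (*mia*). For the spermatid list the median was 0.03, with 6 of 11 above 0 and values from -1.04 (*s-cup*) to 0.49 (*d-cup*).

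Within genotypes the mean of the 8 genes followed the spermatocyte list with r = 0.91 and the spermatid list with r = 0.87. For the lists of related genes described below, r was 0.88 with the sperm tail genes and 0.82 with the histone variants. It was 0.73 with the other MST-HMG-box and sperm nuclear protein genes and 0.72 with the paternal chromatin list. The correlation was 0.78 with 6 spermatogonium genes and with 6 cyst cell and hub genes, and 0.06 with *Ebp* and *EbpII*. It was -0.44 with the gut enzyme genes, -0.54 with 5 muscle genes and -0.38 with 12 accessory gland genes. Wild-type replicates 1 and 3, which are gut-high, also had the highest muscle means (9.43 and 9.47). The muscle mean ranged from 9.02 to 9.47 in wild-type against 8.72 to 9.05 in the mutant, with 3 of 5 genes lower, 0 higher. The accessory gland mean ranged from 12.95 to 13.07 in wild-type against 12.89 to 13.11 in the mutant, with 1 gene higher and 1 lower of 12. The gut list had a median log2-fold change of -1.89, with values down to -3.44 and 3 of 13 genes above 0. At the adjusted p, 1 gene was higher (*epsilonTry*, 0.19) and 0 lower. Of the cyst cell and hub list 2 of 6 genes were higher and 0 lower, and of the spermatogonium list 1 of 6 was higher and 1 lower. *Ebp* and *EbpII* had a median of 1.79 and did not pass. The part of these tissues in the differences of the sperm chromatin genes was not tested, beyond the fits without the gut-high or *Ebp*-high arrays given above.

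**Figure D4:**
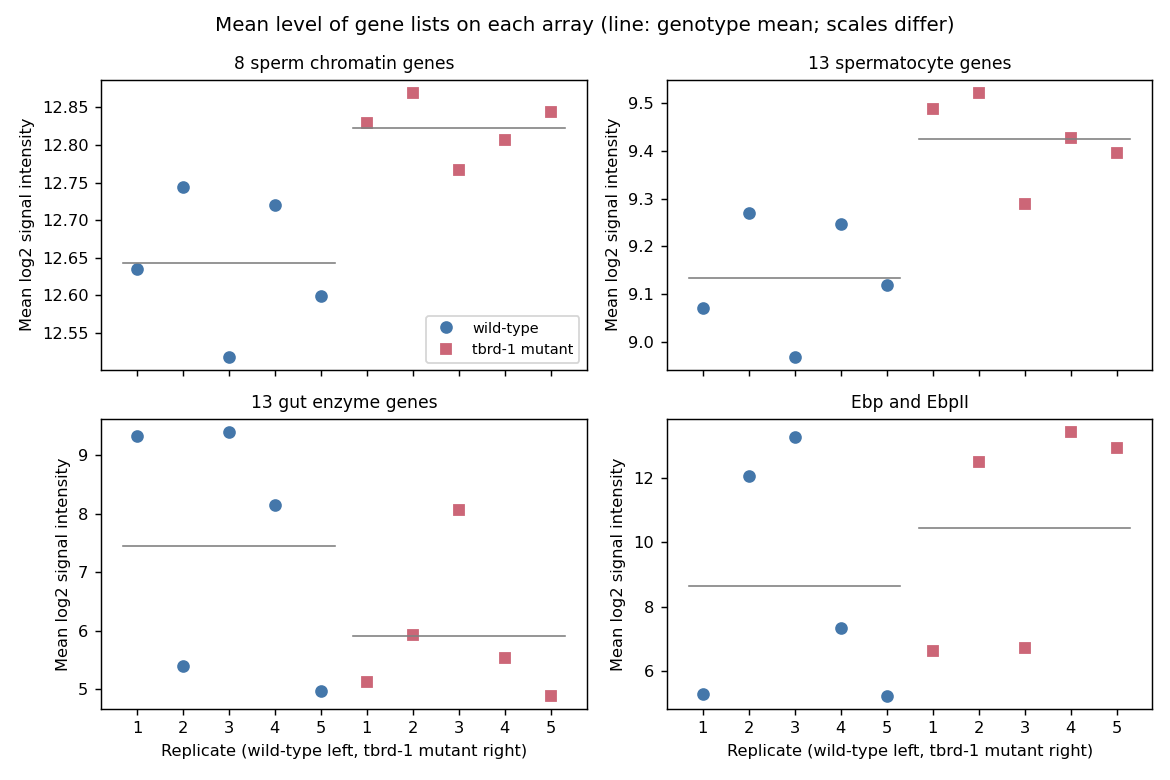
Mean log2 signal intensity of the 8 sperm chromatin genes, 13 spermatocyte genes, 13 gut enzyme genes and the pair *Ebp* and *EbpII* on each array, with a line at each genotype mean. The scales differ between panels and do not start at 0. Wild-type replicate 3 is lowest for the sperm chromatin genes (12.52) and for the spermatocyte genes (8.97), and it is the highest for the gut enzymes (9.40).

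Lists of related genes were read against the shares over all probe sets, 21.6% higher and 14.7% lower. Of 8 further MST-HMG-box and sperm nuclear protein genes, 7 were on the array. Their median log2-fold change was -0.14, and 1 was higher, 2 lower and 4 did not pass. *CG31010* fell by 0.69 on the log2 scale, from 3265 ± 165 to 2022 ± 61.9 (SD, n = 5 each, limma adjusted p = 2.4e-06), and kept its call in all 23 alternative fits. *ddbt*, which encodes a protein that protects the chromosome ends of sperm, fell by 0.40, from 1405 ± 200.1 to 1060 ± 39.7 (SD, n = 5 each, limma adjusted p = 0.0063). *Mst33A* rose by 0.33, from 6053 ± 717 to 7552 ± 469 (SD, n = 5 each, limma adjusted p = 0.012). In all 3 the genotypes did not overlap. Over all probe sets, 13.6% had every mutant array above every wild-type array and 10.3% had every one below. The calls of *ddbt* and *Mst33A* ended without the *Ebp*-high arrays (limma adjusted p = 0.078 and 0.28), that of *ddbt* also when arrays were centred on their medians.

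Of 17 genes that assemble, remodel or handle paternal chromatin, 14 were on the array, with a median log2-fold change of 0.21 and 11 of 14 values above 0, and 7 were higher, 1 lower and 6 did not pass. *snky* rose by 1.19 on the log2 scale, from 239 ± 20.6 to 543 ± 31.2 (SD, n = 5 each, limma adjusted p = 3.8e-07), and was the 1 gene of this list called at the fold minimum. Sneaky is a sperm membrane protein needed for the breakdown of the sperm plasma membrane after fertilization, and thus not a chromatin protein itself. *Chd1*, which encodes a remodelling factor needed for histone deposition on paternal DNA, rose by 0.51 from 202 ± 12.2 to 287 ± 29.5 (SD, n = 5 each, limma adjusted p = 0.00042). *HipHop*, which encodes a telomere capping protein, rose by 0.43 from 68.6 ± 6.95 to 92.6 ± 9.69 (SD, n = 5 each, limma adjusted p = 0.0037). *TrxT*, which encodes the testis-specific thioredoxin, rose by 0.41 from 10391 ± 372 to 13791 ± 526 (SD, n = 5 each, limma adjusted p = 9.6e-05). *snky* and *TrxT* kept their calls in all 23 alternative fits, while those of *Chd1* and *HipHop* ended without the *Ebp*-high arrays (limma adjusted p = 0.064 and 0.23). The count of 7 was 2 in that fit.

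Of 6 histone variant genes only 3 could be read from a single-gene probe set, and 1 was higher and 1 lower. *His2Av*, the gene of the H2A variant, rose by 0.44 from 2076 ± 205 to 2820 ± 236 (SD, n = 5 each, limma adjusted p = 0.0015), a call that ended without the gut-high arrays (limma adjusted p = 0.062). *cid*, the gene of the centromeric histone H3 variant, fell by 0.32 from 58.4 ± 7.73 to 46.4 ± 2.70 (SD, n = 5 each, limma adjusted p = 0.016), a call that ended without the *Ebp*-high arrays (limma adjusted p = 0.23) and when arrays were centred on their medians. The 10 sperm tail genes of the *Mst* and *don juan* families had a median log2-fold change of 0.01, with 2 higher, 1 lower and 7 not past. *dj*, which encodes a sperm tail protein, rose by 1.09 from 1357 ± 161 to 2870.2 ± 61.9 (SD, n = 5 each, limma adjusted p = 1.9e-06). *djl* fell by 0.345 on the log2 scale, from 5581 ± 854 to 4358 ± 236 (SD, n = 5 each, limma adjusted p = 0.018), and *Mst98Cb* rose by 0.19 (limma adjusted p = 0.017). Both of these calls ended without the gut-high arrays (limma adjusted p = 0.13 and 0.14) and without the *Ebp*-high arrays (limma adjusted p = 0.31 and 0.18). That of *djl* also ended with median centring, and that of *Mst98Cb* with ribosomal protein scaling, quantile normalization and the replicate block.

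Genes outside the group also followed the array-to-array pattern, and the 5 most alike are given here. How many others came near them was not counted, and the highest r among so many genes are high by selection. Among 11973 other genes, the within-genotype profile over 10 arrays was most like the mean of the 8 in *CG32450* (Pearson r = 0.985), *CG13693* (0.983), *Ctr1C* (0.982), *CG14383* (0.972) and *CG13898* (0.971). Since genotype means were removed, their genotype difference played no part in the choice. All 5 were higher in the mutant without a fold minimum, by 0.38 in *CG32450*, 0.27 in *CG13693*, 0.24 in *Ctr1C*, 0.29 in *CG14383* and 0.28 in *CG13898* on the log2 scale (adjusted p between 0.0013 and 0.038 from limma). Over all probe sets 21.6% were higher. The profile that they matched also followed the spermatocyte list (r = 0.91), and whether the cell make-up of the samples is behind both was not tested.

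**Figure D5:**
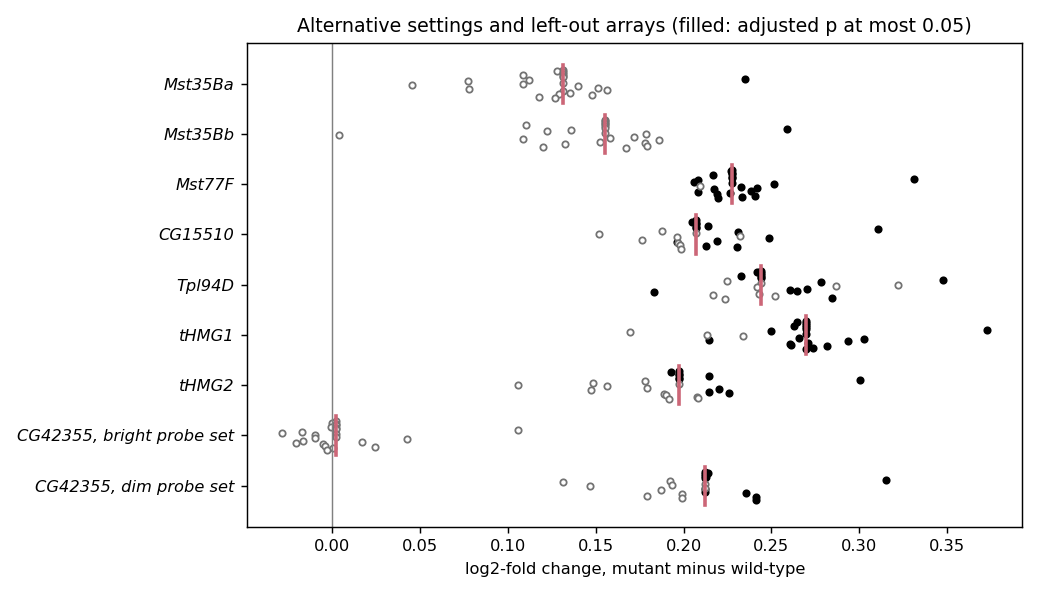
Log2-fold change (mutant minus wild-type) of each probe set under up to 23 alternative settings and left-out arrays (points), with the reported value as a vertical line. Filled points have an adjusted p of at most 0.05. The points of *Mst77F* lie between 0.21 and 0.33 and those of the bright *CG42355* probe set between -0.03 and 0.11.

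The 9 probe sets differed in how far their values moved under 23 alternative fits (22 for the dim probe set). *Mst77F* passed in 22 of 23 and *tHMG1* in 20 of 23, *CG15510* and *Tpl94D* in 14 each and *tHMG2* in 11. The protamine genes passed in 1 of 23 each, when arrays were centred on their medians (*Mst35Ba* 0.235, limma adjusted p = 0.036, and *Mst35Bb* 0.26, limma adjusted p = 0.027). That centring moved the median of all probe sets from 0.07 to 0.17, and 6589 were then higher and 1879 lower against 4052 and 2751. The bright *CG42355* probe set passed in 0 of 23. Scaling to ribosomal protein genes ended the calls of *CG15510* (limma adjusted p = 0.082), *Tpl94D* (0.085) and *tHMG2* (0.12).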

How the data were processed

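Total RNA of whole testes, pooled from 25 animals per array, was hybridized to Affymetrix Drosophila Genome 2.0 arrays, 5 per genotype. The values deposited by the authors are signal intensities made with RMA (background correction, quantile normalization and summary of probes). The submitters' processing notes name RMA and Affymetrix Expression Console, without a version in the sources used here. Intensities are whole numbers on a linear scale without detection calls, so small differences at low signal are set by rounding. RMA brings the arrays towards a like distribution, but the medians of the deposited values still differed between arrays, as given above. The number of arrays limits the precision.

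Their log2 values were used as they were. A model of genotype alone was fitted to 18769 probe sets (183 controls were excluded) by lmFit and eBayes of limma 3.58.1 under R 4.3.3, with Benjamini-Hochberg adjustment. The thresholds, 0.05 for the adjusted p and 1 for the size of the log2-fold change, follow the paper. Of the probe sets, 13647 were annotated to 1 gene, 402 to several and 4720 to none. Symbols were matched to a RefSeq gene table used for names, chromosome arms and gene order. Genes count by their brightest probe set. Within-array differences were tested with exact permutation tests over all 252 arrangements of the genotype labels on the 10 arrays, run in Python 3.11.15. The scripts were tested on simulated data.

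The genes, lists and alternatives were chosen with earlier results of these data known. Named were all sperm chromatin genes, *tbrd-1*, *Mst87F* and the 5 genes with the most similar within-genotype profile. Of each list of related genes, up to 4 past the adjusted p with the largest absolute log2-fold change were named. For the cell type and organ lists only some genes were named, and some neighbouring genes were added after their values were seen. P-values measure the spread between pools. Alternatives were the t-test named in the methods, arithmetic mean folds, other variance priors, array weights, filters, centrings, a replicate block and left-out arrays.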

Additional observations from a re-analysis of the deposited data

Results flagged for a closer look

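On the bright probe set of *CG42355*, mutant replicate 3 read 5386 while the other 4 mutant arrays lay between 5751 and 5842. Its gap to the nearest array was 0.807 of the range of the group, which is above the level at which 1 of 5 values is counted as standing apart. Of 18 groups of 5 arrays examined, 1 had such a value, and chance gives about 1 in 20.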

How the results depend on the processing

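The count of probe sets called at the fold minimum was 0 in both directions under every alternative run, and no value past the threshold changed direction. The count of 6 higher without a fold minimum was 2 with scaling to ribosomal protein genes, 3 with quantile normalization, 8 with median centring, 1 without the gut-high arrays (2 wild-type and 4 mutant arrays remained) and 0 without the *Ebp*-high arrays (3 wild-type and 2 mutant arrays remained). The methods' t-test gave 6, and 0 at the fold minimum. With 1 array left out it ranged from 2 to 6. Over all probe sets 1826 were higher and 1792 lower without the gut-high arrays, and 1081 and 1115 without the *Ebp*-high arrays. Apart from fewer arrays, the cause was not tested. The difference between *tHMG1* and *tHMG2* was 0.0722 with limma, where it did not pass, and ranged from 0.045 to 0.0863 with 1 array left out. Same-numbered arrays of the genotypes correlated between -0.31 and 0.48 over 5 pairs, and 1 of 5 wild-type arrays correlated best with its own number. The labels give only a replicate number. These correlations cannot tell whether same-numbered samples were handled together, since the arrays also differed in genes of other organs. With the replicate block 2 of 9 probe sets were higher, and 3497 over all probe sets against 4052. The arrays carry no detection calls, which limits what can be said of dim probe sets.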

Other observations

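Of 16 neighbouring genes with a probe set of their own, up to 2 on each side, 3 were higher, 4 lower and 9 did not pass without a fold minimum, where 21.6% and 14.7% of all probe sets were higher and lower. Around the adjacent protamine genes on chromosome arm 2L, the next gene on either side had no probe set of its own. The second gene on one side, *CG15278*, fell by 0.66 on the log2 scale, from 1959 ± 251 to 1234 ± 70.4 (SD, n = 5 each, adjusted p = 0.00015 from limma). The second on the other, *side-II*, rose 2.83-fold, from 31 ± 1.41 to 87.8 ± 7.33 (SD, n = 5 each, adjusted p = 3.9e-08 from limma). Its wild-type level lay below the array medians of 68 to 78. Beside *Tpl94D*, the next gene on one side, *lncRNA:CR43655*, rose by 0.30 (adjusted p = 0.016 from limma), and the second gene on the other, *Nha2*, fell by 1.02 (adjusted p = 0.014 from limma). *Pka-R1*, in which *Mst77F* lies, was at 94.8 ± 15.3 in wild-type and 79.4 ± 7.30 in the mutant (SD, n = 5 each, adjusted p = 0.12 from limma). These neighbours were chosen after their values were seen.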
